A study of Mus musculus with 20 samples.

Results

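The simple epithelial keratins Krt7, Krt8, Krt18, Krt19 and Krt20 were followed by RNA sequencing in epithelial cells sorted from mouse small-intestinal crypts. The rule that picks them is their gene symbol and uses no measured value, but the family was chosen for study with earlier results of these data known. All 5 were found in both tables, among 11746 gene entries for GFP-high cells and 11779 for GFP-low cells, and all 5 passed the filter on low counts in each. The 20 libraries came from C57BL/6J mice at 8 weeks of age that carried Lgr5-GFP, a reporter of the crypt stem cell receptor Lgr5. Genotypes were Itgb7+/+ (wild type, WT; mice 1, 3, 6, 7 and 8) and Itgb7-/- (knockout, KO; mice 2, 3, 4, 5 and 6), and a number shared by a WT and a KO mouse does not mark the same animal. Same-numbered GFP-high and GFP-low libraries of a genotype were taken as 1 mouse, which the labels do not say outright. EpCAM+ crypt cells were sorted after 7AAD-stained (dead), CD45+, CD31+ and TER119+ cells were gated out. GFP-high cells are called stem cells by the labels, and GFP-low cells TA (transient amplifying) cells. This gave 4 groups of 5 libraries. Itgb7, the integrin beta 7 subunit of gut-homing and intraepithelial lymphocytes, is given as Itgb7-/- in the labels, with no restriction to a cell type named.

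Keratins are intermediate filament proteins that form filaments only as heteropolymers of a type I (acidic) and a type II (basic) chain. In simple epithelia Krt8 is the main type II chain, Krt7 a second and more restricted one, and Krt18, Krt19 and Krt20 are type I chains that partner with them. In the small intestine Krt8, Krt18 and Krt19 are found along the crypt and villus, while Krt20 is known as a marker of differentiated cells. Filaments give the cells mechanical strength and are tied to desmosomes and hemidesmosomes by plakin linker proteins.

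On mouse build mm10, 3 of the genes lie on chromosome 15 and 2 on chromosome 11. Krt7 spans bases 101411043 to 101430313 on the plus strand of chromosome 15, Krt8 bases 101996698 to 102004482 on the minus strand, and Krt18 bases 102028180 to 102032027 on the plus strand. Krt8 and Krt18, the main partners, are thus transcribed away from each other across a gap of 23.7 kb. The deleted gene, Itgb7, lies on the same chromosome at bases 102215995 to 102231944, 184 kb from Krt18, 212 kb from Krt8 and 786 kb from Krt7. Krt19 (bases 100140810 to 100148665) and Krt20 (bases 99428403 to 99438150) lie on the minus strand of chromosome 11.

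The promoter windows of Krt8 and Krt18, the neighbouring partners, and of Krt20, the member that differed most between the populations, are shown. They are RefSeq sequences on GRCm38.p6, from 250 bases before to 50 bases after each RefSeq start, printed along the gene's strand. Capitals mark TATAAA, the core of a TATA box, and GGGCGG, a GC box, searched on both strands. Krt8 is at chr15:102004293-102004592 on the minus strand, Krt18 at chr15:102027966-102028265 on the plus strand and Krt20 at chr11:99438104-99438403 on the minus strand.
Krt8: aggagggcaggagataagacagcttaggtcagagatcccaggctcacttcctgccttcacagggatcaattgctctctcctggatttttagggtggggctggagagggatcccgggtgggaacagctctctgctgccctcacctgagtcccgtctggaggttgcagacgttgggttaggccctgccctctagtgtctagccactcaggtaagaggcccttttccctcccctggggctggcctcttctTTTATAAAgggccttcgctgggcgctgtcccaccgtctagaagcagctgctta
Krt18: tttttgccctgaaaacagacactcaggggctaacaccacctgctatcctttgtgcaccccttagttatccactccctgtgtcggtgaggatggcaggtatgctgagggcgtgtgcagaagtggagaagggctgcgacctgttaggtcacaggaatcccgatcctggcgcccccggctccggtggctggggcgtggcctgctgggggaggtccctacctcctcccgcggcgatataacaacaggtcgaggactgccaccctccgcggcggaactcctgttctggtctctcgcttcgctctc
Krt20: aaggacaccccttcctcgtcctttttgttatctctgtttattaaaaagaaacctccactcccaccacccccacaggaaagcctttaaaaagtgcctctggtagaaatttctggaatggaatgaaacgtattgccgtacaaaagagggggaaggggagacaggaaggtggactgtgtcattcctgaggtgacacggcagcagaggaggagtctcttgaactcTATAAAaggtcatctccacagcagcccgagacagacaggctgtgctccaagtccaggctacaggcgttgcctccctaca
TATAAA was found in the Krt20 window, 29 bases before the start, and in the Krt8 window, where matches on both strands overlap, the one on the gene's strand beginning 1 base before the RefSeq start. For Krt8 and Krt18 the RefSeq start lies inside the gene span given above, so distances hold for the RefSeq start only. GGGCGG was found in none of these 3 windows and at 4 places in that of Krt7, which is not printed. AGATAA, the core of sites for GATA-family factors, and TTTATNG, the core of CDX-type sites, were searched too and are not capitalised. AGATAA was found 239 bases before the Krt8 start and 223 before the Krt20 start, and TTTATNG 30 bases before the Krt20 start, on the other strand and overlapping TATAAA. The Krt18 window held none of the 4 motifs. Over the 32851 windows of this length searched, a set that leaves out 1 chromosome, 13.6% held TATAAA, 35.7% GGGCGG, 11.2% AGATAA and 10.9% TTTATNG. A match is a description of the letters only.

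Depth was even, with 20900404 to 27838392 counts per library, and the smallest count of any member was 255, for Krt20 in KO GFP-high mouse 4. Neither table has an entry for Itgb7, which is not analysed here; the genotypes rest on the labels alone. Lgr5 was 102 ± 20.0 CPM (counts scaled to a common library size, with TMM factors; mean ± SD, n = 5) in WT GFP-high, 105 ± 11.1 in KO GFP-high, 12.9 ± 6.71 in WT GFP-low and 7.00 ± 2.38 in KO GFP-low cells, in the order the sort gates imply. The pan-epithelial markers Epcam and Cdh1 together ranged from 831 to 1046 CPM over the 20 libraries. Of the defining markers looked for, the leukocyte genes Ptprc, Cd3e, Cd8a and Cd79a, the stromal genes Col1a1, Col1a2, Col3a1, Dcn and Pdgfra, and all 3 endothelial, 2 erythroid and 4 mesothelial genes were in neither table. Other leukocyte genes were found, and 2 of the 8 listed were in both tables. Their median sum was 6.73 CPM in WT and 17.9 CPM in KO GFP-high libraries. In GFP-low libraries it was 5.55 CPM in WT and 9.65 CPM in KO mice. WT and KO ranges overlapped, and the part of this leukocyte signal in the keratin values was not tested. Markers of mature epithelial lineages were present in both populations. The summed level of 5 goblet genes was 1459 to 3515 CPM in WT GFP-high and 22404 to 58225 CPM in WT GFP-low libraries, and that of 5 Paneth genes was 12331 to 50399 and 47863 to 204152 CPM. The 5 enterocyte genes in both tables, of 6 listed, summed to 181 to 273 CPM in WT GFP-high and 1541 to 3157 CPM in WT GFP-low libraries. Their part in the keratin differences was not tested, and in sorted bulk cells more cells of a type and more RNA per cell cannot be told apart.

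Per kilobase of exon the order of levels was the same in all 4 groups for the 3 abundant members. Krt18 was highest, at 1945 ± 451 CPM per kilobase (SD, n = 5) in WT GFP-high and 3053 ± 819 in WT GFP-low cells. Krt8 followed with 778 ± 58.8 and 1743 ± 156, and Krt19 with 442 ± 24.3 and 870 ± 114. Krt20 was far lower, at 10.4 ± 2.88 in WT GFP-high and 143 ± 24.2 in WT GFP-low cells, as was Krt7, at 9.16 ± 1.22 and 22.6 ± 13.4. The ranges of Krt18 and Krt8 did not overlap in WT GFP-high (lowest Krt18 1356, highest Krt8 854), KO GFP-high or WT GFP-low libraries. They did overlap in KO GFP-low libraries, where the lowest Krt18 was 1624 and the lowest Krt8 1628 CPM per kilobase. Those of Krt8 and Krt19 were separate in every group. In GFP-high cells of either genotype Krt7 and Krt20 overlapped, and their order rests on the gene model. The joined exons of Krt7 measure 7049 bases over 5 annotated transcripts and its longest coding sequence 1371 bases. Per kilobase of coding sequence the mean of Krt7 was 47.1 against 15.5 for Krt20 in WT GFP-high cells. The 5 genes together took 0.571% ± 0.0887 of counts in WT GFP-high, 0.546% ± 0.0307 in KO GFP-high, 0.840% ± 0.168 in WT GFP-low and 0.905% ± 0.0797 in KO GFP-low libraries.

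The first question was how the keratins differed between GFP-low and GFP-high cells. All 5 were higher in GFP-low cells of WT mice, by 1.57-fold (Krt18) to 13.7-fold (Krt20), and all 5 were higher in KO mice, by 1.57-fold (Krt18) to 11.9-fold (Krt20). Krt7, Krt8 and Krt19 lay between, at 1.97- to 2.60-fold over both genotypes. Of all genes tested with edgeR, 43.4% changed in WT mice at a Benjamini-Hochberg adjusted p under 0.05, 22% higher (2478 of 11281) and 21.4% lower. In KO mice 50.5% changed, 26.2% higher (2954 of 11282) and 24.4% lower. The WT and KO comparisons share no libraries.

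**Figure D1:**
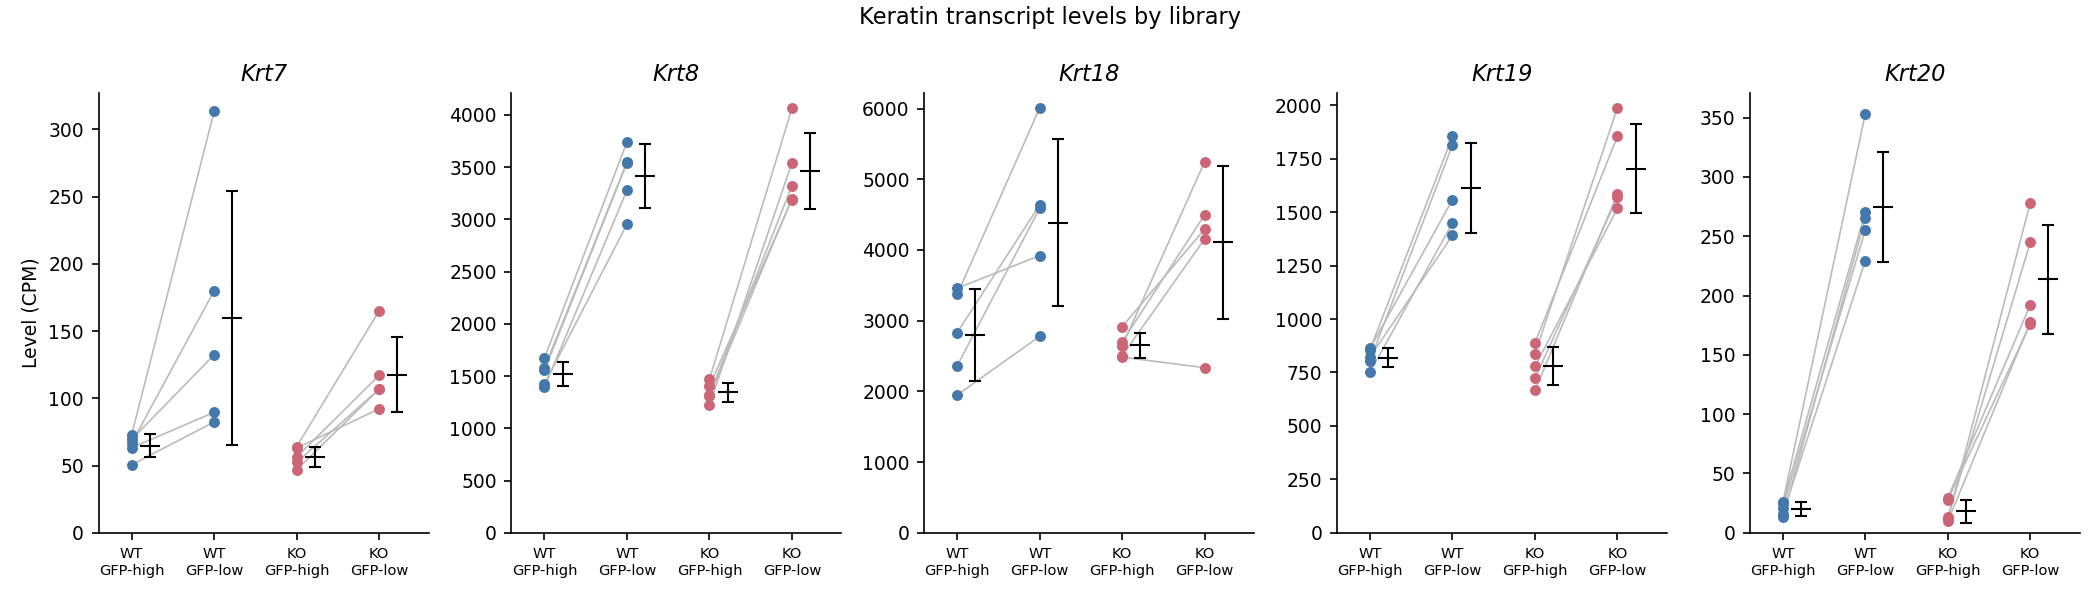
Transcript level of each keratin in CPM (TMM-scaled over the 20 libraries) in WT and KO, GFP-high and GFP-low cells. Points are libraries, grey lines join the GFP-high and GFP-low libraries of a mouse, and black marks are the mean ± SD of 5 libraries. The GFP-low libraries lay above all GFP-high libraries of the same genotype for Krt7, Krt8, Krt19 and Krt20, while for Krt18 they overlapped. This separation was not set against that of all genes, of which edgeR called 22% higher in GFP-low cells of WT and 26.2% of KO mice.

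Krt20, the type I keratin of differentiated cells, separated the populations most. In WT GFP-high cells it was 21.1, 25.5, 24.8, 15.6 and 13.0 CPM in mice 1, 3, 6, 7 and 8, and in WT GFP-low cells of the same mice 255, 353, 270, 229 and 265 CPM. In KO GFP-high cells it was 29.5, 12.9, 11.2, 27.6 and 9.66 CPM in mice 2 to 6, and in KO GFP-low cells 192, 245, 278, 176 and 177 CPM. No GFP-low library reached down to any GFP-high library, and within a mouse the ratio ran from 10.9 to 20.4 in WT and from 6.35 to 24.8 in KO mice. The log2 fold change was 3.78 ± 0.20 (SE; edgeR adjusted p = 1.41e-07) in WT and 3.57 ± 0.31 (adjusted p = 7.60e-07) in KO mice. In absolute size, 0.186% of genes in WT and 0.257% in KO mice changed more. The wide spread of KO GFP-high cells came from mice 2 and 5, whose Krt20 was above the 9.66 to 12.9 CPM of mice 3, 4 and 6. The enterocyte marker sum was 388 CPM in mouse 2 against 154 to 189 CPM in the other KO GFP-high libraries, and the goblet marker sum was 2490 CPM in mouse 5 against 1210 to 1554 CPM. The 2 libraries thus stood out in different lineages: mouse 5 had an enterocyte sum of 184 CPM, and mouse 2 a goblet sum of 1554 CPM. In WT GFP-high cells the highest enterocyte sum was in mouse 7 and the highest goblet sum in mouse 1, while mouse 3 had the most Krt20. The part of these cells in the Krt20 values was not tested.

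Krt8, the main type II chain and partner of all 3 type I members, rose in both genotypes. WT GFP-high cells held 1672, 1579, 1553, 1423 and 1393 CPM in mice 1, 3, 6, 7 and 8, and WT GFP-low cells 3740, 3546, 3542, 2952 and 3279 CPM. KO GFP-high cells held 1403, 1318, 1225, 1469 and 1308 CPM in mice 2 to 6, and KO GFP-low cells 3188, 3321, 3541, 4063 and 3199 CPM. The groups were far apart and the within-mouse ratio varied little, from 2.07 to 2.35 in WT and 2.27 to 2.89 in KO mice. The log2 fold change was 1.16 ± 0.11 (adjusted p = 8.55e-06) in WT and 1.38 ± 0.10 (adjusted p = 1.83e-07, edgeR) in KO mice.

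Krt19, the shortest keratin, which lacks most of the usual tail domain, followed Krt8 closely. In WT mice 1, 3, 6, 7 and 8 it was 862, 806, 857, 751 and 822 CPM in GFP-high and 1559, 1815, 1855, 1449 and 1392 CPM in GFP-low cells. In KO mice 2 to 6 it was 889, 723, 666, 838 and 779 CPM in GFP-high and 1855, 1570, 1586, 1989 and 1518 CPM in GFP-low cells. The populations did not overlap in either genotype. The log2 fold change was 0.98 ± 0.11 (edgeR adjusted p = 3.15e-05) in WT and 1.14 ± 0.11 (adjusted p = 1.67e-06) in KO mice.

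Krt7, the restricted type II chain, rose by 1.31 ± 0.31 on the log2 scale in WT (edgeR adjusted p = 0.00448) and by 1.07 ± 0.15 in KO mice (adjusted p = 3.91e-05). In WT mice 1, 3, 6, 7 and 8 its level was 69.4, 63.2, 66.7, 50.6 and 72.9 CPM in GFP-high and 132, 89.6, 180, 82.3 and 313 CPM in GFP-low cells. In KO mice 2 to 6 it was 63.0, 46.8, 52.3, 64.0 and 56.3 CPM in GFP-high and 92.2, 107, 107, 165 and 117 CPM in GFP-low cells. GFP-low libraries were all higher, but those of WT mice spread 3.81-fold between lowest and highest, the widest of any member in GFP-low cells. Mouse 8, the highest WT GFP-low library for Krt7, also had the highest goblet marker sum of that group, at 58225 CPM against 22404 to 35999 CPM in the other 4. Its enteroendocrine sum was the highest too, at 2141 CPM against 899 to 1707 CPM. Mouse 1 had more goblet signal than mouse 6 (35999 and 29252 CPM) but less Krt7. KO mouse 5 was the highest KO GFP-low library for Krt7 and for the goblet marker sum, at 42198 CPM against 20334 to 32088 CPM. The part of these cells in Krt7 was not tested. Krt7 overlaps an antisense gene model, Gm671, and because no source states whether counting used strand, their reads cannot be told apart. Krt8 likewise overlaps the long noncoding gene model Gm36026.

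Krt18, the classical type I partner of Krt8, rose least. WT GFP-high cells held 3371, 2832, 3459, 1949 and 2363 CPM in mice 1, 3, 6, 7 and 8, and WT GFP-low cells 6009, 4638, 3919, 2779 and 4589 CPM. KO GFP-high cells held 2484, 2915, 2642, 2700 and 2504 CPM in mice 2 to 6, and KO GFP-low cells 2334, 4296, 5249, 4498 and 4155 CPM. It was higher in GFP-low cells in 5 of 5 WT mice, by 1.13- to 1.94-fold, and in 4 of 5 KO mice, the exception being mouse 2 with a ratio of 0.940. That library also had the lowest Paneth marker sum of its group, 20532 CPM against 70215 to 102414 CPM. Its goblet (20334 CPM), enteroendocrine (740 CPM) and tuft (21.6 CPM) sums were the lowest of the group too, and its enterocyte sum (1934 CPM) the highest. In WT GFP-low cells mouse 7 had the lowest Krt18, while mouse 6 had the lowest Paneth sum (47863 CPM). The part of these cell types in Krt18 was not tested. The log2 fold change was 0.65 ± 0.21 (edgeR adjusted p = 0.0246) in WT and 0.65 ± 0.17 (adjusted p = 0.00563) in KO mice. In WT mice this call was lost without GFP-high mouse 7 (log2 fold change 0.55, edgeR adjusted p = 0.0579), GFP-high mouse 8 (0.60, adjusted p = 0.0595) or GFP-low mouse 1 (0.51, adjusted p = 0.0654). It was also lost without GFP-low mice 3 and 8 together (0.60, edgeR adjusted p = 0.0942), so that 4 of 5 members then passed. Calls over all genes fell too in that fit, from 4894 to 3634. These 2 libraries had the highest Paneth marker sums of WT GFP-low cells. They also had its lowest TMM factors, 0.730 and 0.729 against 0.926 to 0.976.

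Scaling bears on all these values. When libraries were scaled by their totals alone, the median gene shifted to -0.37 (log2) in the WT comparison and -0.27 in the KO comparison, and calls split into 1188 higher and 4892 lower in WT and 1777 higher and 4737 lower in KO mice. On that scale the WT values were 3.40 for Krt20, 0.92 for Krt7, 0.81 for Krt8, 0.63 for Krt19 and 0.29 for Krt18. The KO values were 3.30, 0.80, 1.11, 0.88 and 0.37 in the same order. Every member thus stayed above 0 and above that median, and Krt18 alone lost its call, in WT mice (adjusted p = 0.265).

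**Figure D2:**
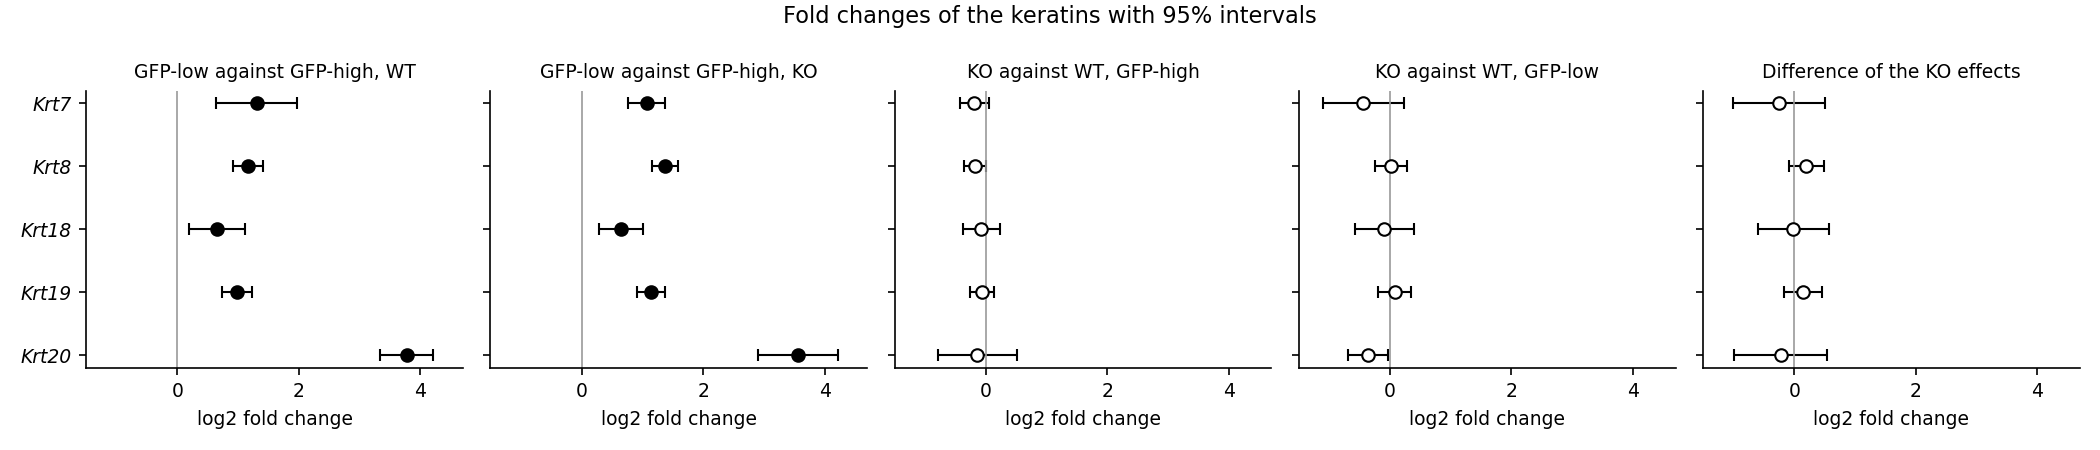
Log2 fold change of each keratin with its 95% interval in the 4 comparisons of groups and, at the right, the KO effect in GFP-low minus that in GFP-high cells. Filled points passed an edgeR adjusted p of 0.05 over all genes. All 5 passed in both comparisons of GFP-low with GFP-high cells, and none in the others.

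Ratios of a type I chain to Krt8 within a library do not depend on scaling between libraries, so they were used to ask whether the partners rose together. Per kilobase, Krt20 to Krt8 went from 0.0132 ± 0.00308 (SD, n = 5) in WT GFP-high to 0.0818 ± 0.0118 in WT GFP-low cells, and from 0.0134 ± 0.00631 to 0.0632 ± 0.0145 in KO mice. Krt20 therefore rose beyond its type II partner, by 2.65 log2 units in WT mice and by 2.33 in KO mice, with no overlap between the groups. Krt18 to Krt8 was 2.48 ± 0.443 in GFP-high and 1.73 ± 0.352 in GFP-low cells of WT mice, and fell from 2.70 ± 0.266 to 1.61 ± 0.388 in KO mice. In WT mice its groups overlapped (1.87 to 3.03 against 1.28 to 2.19). In KO mice they did not (2.41 to 3.01 against 0.998 to 2.02). Krt19 to Krt8 was 0.569 ± 0.0346 in GFP-high and 0.500 ± 0.0525 in GFP-low cells of WT mice, and 0.610 ± 0.0391 and 0.521 ± 0.0547 in KO mice.

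Over the 15 ratio tests, a two-sided exact permutation of the libraries gave p = 0.00794, the smallest that 5 against 5 allows, for Krt20 to Krt8 in both genotypes and for Krt18 to Krt8 in KO mice (Benjamini-Hochberg adjusted p = 0.0397 each). That permutation ignores the pairing by mouse. The exact sign flip within mice gave p = 0.0625, the smallest that 5 mice allow, for these 3 differences, so the paired test cannot pass. Without any 1 of the 5 KO GFP-high libraries the KO calls were lost (exact permutation, adjusted p = 0.0794 for Krt18 to Krt8 and 0.0595 for Krt20 to Krt8). Krt18 to Krt8 in WT mice differed by -0.52 log2 units and did not pass (exact p = 0.0238, adjusted p = 0.0893), though it was lower in GFP-low cells in 5 of 5 mice. Krt19 to Krt8 differed by -0.19 log2 units in WT (exact p = 0.0397, adjusted p = 0.0992) and -0.23 in KO mice (exact p = 0.0317, adjusted p = 0.0952), and did not pass.

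**Figure D3:**
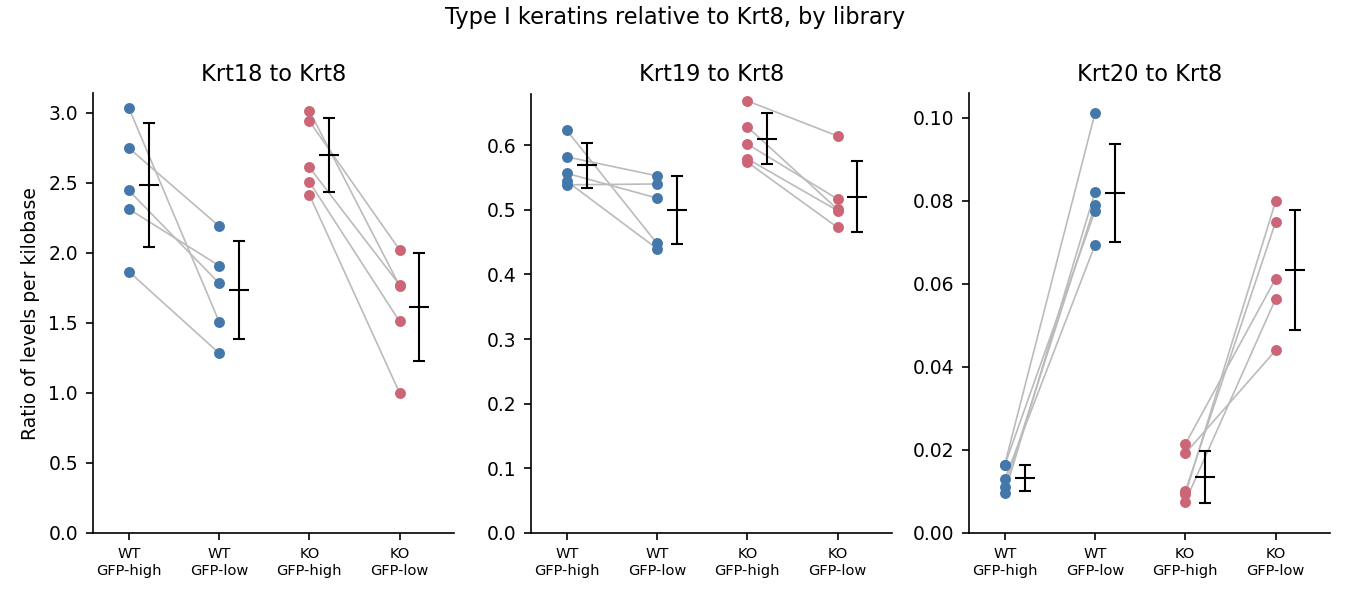
Level of Krt18, Krt19 and Krt20 relative to Krt8, per kilobase of exon, by library. Points are libraries, grey lines join the libraries of a mouse, and black marks are the mean ± SD of 5. Krt20 to Krt8 is higher in every GFP-low library, and Krt18 to Krt8 is below its own GFP-high value in each of the 10 mice.

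Summed over the family, type I exceeded type II transcripts in every library. The ratio of Krt18, Krt19 and Krt20 to Krt7 and Krt8, per kilobase, was 3.03 ± 0.440 in WT GFP-high, 3.28 ± 0.229 in KO GFP-high, 2.29 ± 0.308 in WT GFP-low and 2.18 ± 0.339 in KO GFP-low cells (SD, n = 5). Krt18 made up 60.5% ± 4.41 of the summed level in WT GFP-high and 51.7% ± 5.77 in WT GFP-low cells, while the share of Krt8 was 24.8% ± 2.81 and 30.3% ± 2.97. Krt20 remained a small part, at 0.324% ± 0.0628 and 2.48% ± 0.409.

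The next question was how KO cells compared with WT cells of the same gate. Among GFP-high libraries none of the 5 keratins passed. All 5 estimates lay below 0, but the sign was not stable for Krt18 and Krt20. With 1 library left out in turn, their log2 fold changes ran from -0.18 to 0.02 and from -0.38 to 0.03. Relative to WT the level in KO cells was 0.878-fold for Krt7 (95% interval 0.743 to 1.04), 0.885-fold for Krt8 (0.778 to 1.01), 0.951-fold for Krt18 (0.771 to 1.17), 0.953-fold for Krt19 (0.831 to 1.09) and 0.910-fold for Krt20 (0.581 to 1.43). Krt8 had the smallest p of these, with a log2 fold change of -0.18 ± 0.09 (SE; edgeR unadjusted p = 0.0602, adjusted p = 0.539). The KO libraries, at 1225 to 1469 CPM, overlapped the WT libraries at 1393 to 1672 CPM. Median marker sums of GFP-high libraries, KO and then WT, were 1319 and 2467 CPM for goblet and 112 and 250 CPM for enteroendocrine genes. They were 5.67 and 12.1 CPM for tuft, 184 and 226 for enterocyte and 24864 and 27604 for Paneth genes. For stem cell genes they were 4119 and 3737 CPM. All these ranges overlapped, and their part in the keratin values was not tested. Over all 11745 genes tested, 0% passed (0 genes; 1150 at an unadjusted p under 0.05), while DESeq2 called 145 genes, none of them among these 5.

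In GFP-low cells again none of the 5 passed, where 0.00849% of 11778 genes did. That is 1 gene, Arhgef10, outside the family. Krt20 was 0.778-fold (95% interval 0.619 to 0.977; log2 fold change -0.36 ± 0.15; edgeR unadjusted p = 0.0333, adjusted p = 0.766), with KO libraries at 176 to 278 CPM and WT libraries at 229 to 353 CPM. The enterocyte marker sum of these libraries was 991 to 1934 CPM in KO (median 1150) and 1541 to 3157 CPM in WT (median 1927), and its part in the Krt20 values was not tested. Krt7 was 0.738-fold (0.463 to 1.18), Krt8 1.02-fold (0.845 to 1.22), Krt18 0.938-fold (0.668 to 1.32) and Krt19 1.06-fold (0.872 to 1.28). Without the WT GFP-low libraries of mice 3 and 8 the log2 fold change of Krt20 was -0.24 and that of Krt7 -0.17, against -0.44 with them. Scaled by library totals, which moved the median of all genes by 0.14 (log2), Krt18 went from -0.09 to 0.04 and Krt20 to -0.20.

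No member passed the interaction test of whether the KO effect differs between the populations, nor did any gene (0% of 11284; 353 at an unadjusted p under 0.05; 0 with DESeq2). The difference of effects, GFP-low minus GFP-high, was -0.25 ± 0.36 on the log2 scale for Krt7, 0.20 ± 0.14 for Krt8, -0.02 ± 0.28 for Krt18, 0.15 ± 0.15 for Krt19 and -0.22 ± 0.37 for Krt20 (SE; edgeR adjusted p = 0.9996 for each). None of the 3 partner ratios passed between genotypes, in either population or in its within-mouse change. Their exact p ran from 0.0635 for Krt20 to Krt8 in GFP-low cells (adjusted p = 0.136) to 0.841.

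Genes with the most similar profile over the 20 libraries were those with the smallest root mean square difference in log2 CPM after each gene's mean was taken off. Krt19 was nearest to Misp, an actin-bundling protein (0.10 log2 units), then Gpx1, a glutathione peroxidase (0.13), and Adipor2, an adiponectin receptor (0.13). For Krt8 they were Mvp, the major vault protein (0.14), Lgals2, a galectin (0.15), and Gstp2, a glutathione transferase (0.15). Krt19 was also close to Krt8, at 0.16, with 5 genes nearer to Krt8 than it. Its partner Krt18 was at 0.42, with 1026 genes nearer to Krt8. Krt18 was nearest to the LIM-domain protein Fhl2 (0.17), the inflammasome component Nlrc4 (0.19) and Tsc22d1 (0.20). Krt20, whose own SD over the libraries was 1.98, was nearest to Ces1f, a carboxylesterase (0.34), the sialyltransferase St3gal4 (0.36) and the glucuronosyltransferase Ugt2b5 (0.37). Krt7 was nearest to Fam174b (0.24), the clathrin light chain Cltb (0.25) and Tram1 (0.25). The libraries share mice and populations, so these distances are descriptions of the 20 profiles.

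Proteins that anchor keratin filaments were set beside the family. Of 15 plakin and desmosome genes, all measured, 6 rose, 1 fell and 8 did not pass in GFP-low against GFP-high cells of WT mice (median log2 fold change 0.25, against -0.015 over all genes, of which 22% rose and 21.4% fell). The rises included the plakins Dst (1.20 ± 0.14) and Plec (1.23 ± 0.25), which link keratins to integrin adhesions, and the desmosome-associated Pof1b, while Pkp4 fell by 0.41 ± 0.10. In KO mice 7 rose, 2 fell and 6 did not pass (median 0.30, against -0.009 over all genes, of which 26.2% rose and 24.4% fell), with Plec at 1.17 ± 0.14 and Dst at 1.31 ± 0.21. Desmoplakin (Dsp), the plakin of desmosomes, was at -0.29 ± 0.17 in WT mice (edgeR adjusted p = 0.182) and fell by 0.28 ± 0.09 in KO mice (adjusted p = 0.0232). Of 4 hemidesmosome genes 3 were measured. In WT mice Cd151, a tetraspanin, rose by 0.37 ± 0.09, the integrin subunit Itga6 fell by 0.60 ± 0.10, and its partner Itgb4 was at 0.33 ± 0.15 (adjusted p = 0.0903). In KO mice Cd151 (0.56 ± 0.09) and Itgb4 (0.32 ± 0.12) rose and Itga6 fell by 0.34 ± 0.09. The medians of these 3 genes were 0.33 in WT and 0.32 in KO mice.

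Of 16 other intermediate filament genes 7 were held by both tables. In WT mice 3 rose, 3 fell and 1 did not pass (median 0.72, against -0.015 over all genes, of which 43.4% changed). In KO mice 3 rose, 2 fell and 2 did not pass (median 0.34, against -0.009 over all genes, of which 50.5% changed). Lmna, the A-type lamin of the nuclear envelope, rose by 1.46 ± 0.22 in WT and 1.49 ± 0.19 in KO mice. The B-type lamin Lmnb2 fell by 0.54 ± 0.12 in WT mice and was at -0.19 ± 0.14 in KO mice (edgeR adjusted p = 0.263). Vim, which encodes vimentin of mesenchymal and other cells, rose by 2.42 ± 0.40 in WT and 3.27 ± 0.28 in KO mice, from a low level of 1.92 to 6.91 CPM in WT GFP-high libraries to 10.1 to 32.8 CPM in WT GFP-low libraries. Among 13 keratin-binding regulators 5 rose, none fell and 8 did not pass in WT mice (median 0.25), where 22% of all genes rose and 21.4% fell. In KO mice 4 rose, 2 fell and 7 did not pass (median 0.08), a share of rises near the 26.2% of all genes, of which 24.4% fell. Sfn, the 14-3-3 sigma adaptor that binds phosphorylated keratin, rose by 1.19 ± 0.23 in WT and 1.37 ± 0.12 in KO mice. Casp6, a caspase known to cleave Krt18, rose by 0.61 ± 0.15 in WT and 0.43 ± 0.08 in KO mice.

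**Figure D4:**
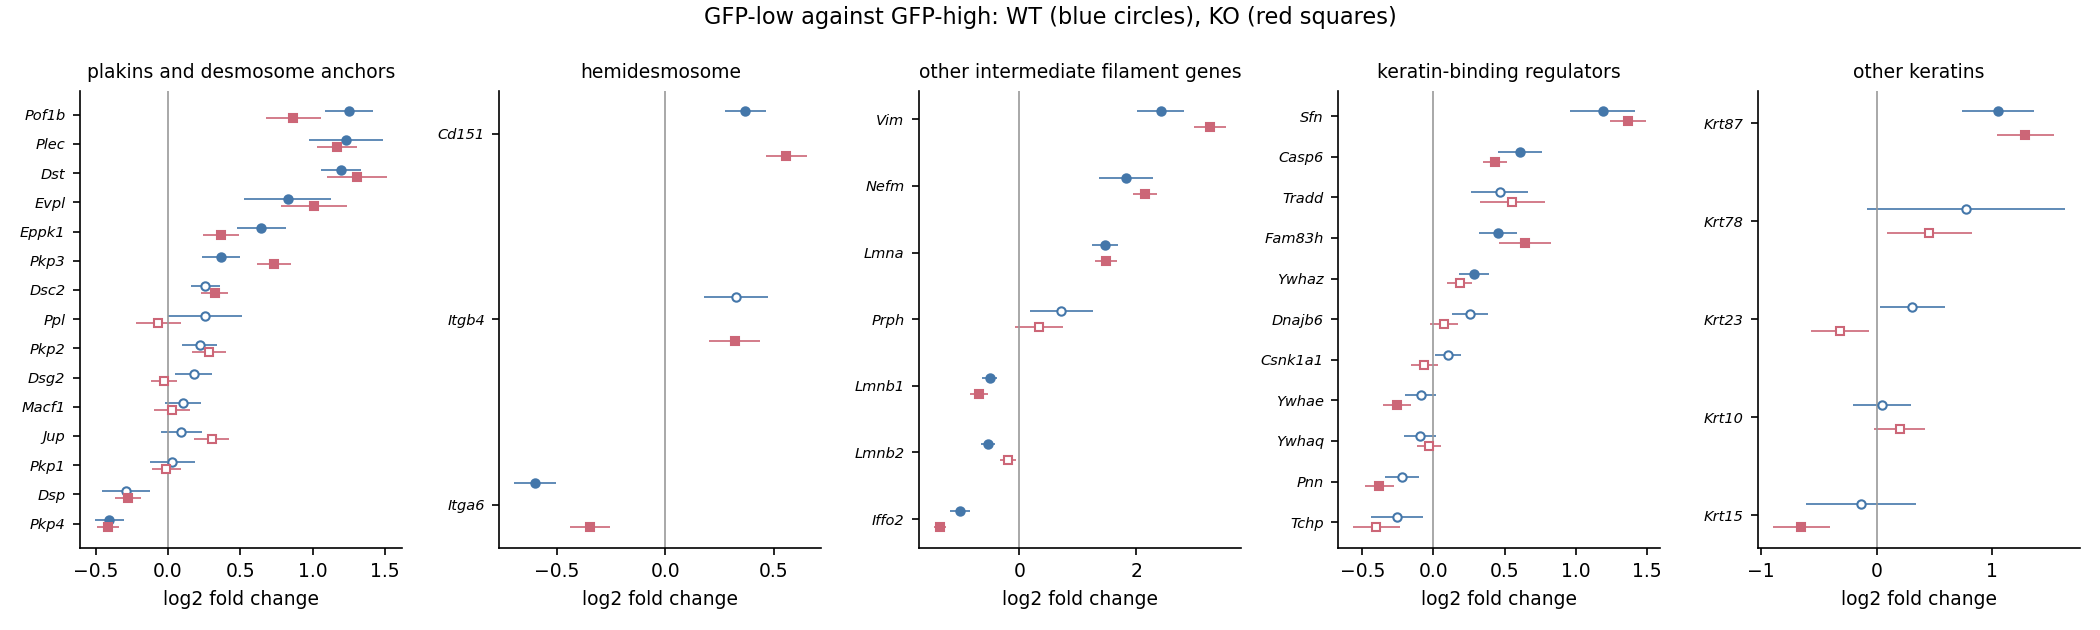
Log2 fold change of GFP-low against GFP-high cells (points, with bars of 1 SE) for genes of the keratin network, not all members of each list drawn, in WT (blue circles) and KO mice (red squares). Filled points passed an edgeR adjusted p of 0.05 over all genes. Plec, Dst, Pof1b, Lmna and Sfn rose in both genotypes, and Pkp4, Itga6 and Iffo2 fell in both.

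Between genotypes, none of these anchor, filament and regulator genes passed in GFP-high or GFP-low cells or in the interaction. The medians for KO against WT were -0.01 and -0.07 for the plakin and desmosome genes in GFP-high and GFP-low cells, and 0.02 and -0.08 for the regulators, against 0.006 and -0.004 over all genes. They were -0.13 and -0.03 for the other intermediate filament genes and -0.05 and 0.12 for the hemidesmosome genes.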

How the data were processed

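RNA was sequenced from 20 sorted libraries, 4 groups of 5. The authors deposited expected counts per gene (estimated counts, 1 table per population), made with tools among which the submitters' processing notes list RSEM, Bowtie2 and TopHat2, and with mouse build mm10. What each tool did, and its version, is not stated. Of the values in the tables, 13.7% were not whole numbers. The lowest mean count of a gene was 17.0 in the GFP-high and 16.8 in the GFP-low table; genes below are not analysed here. RSEM divides reads shared between similar genes; a Krt8 pseudogene on chromosome 7 is annotated.

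Counts were rounded and tested with edgeR 4.0.16 (R 4.3.3; quasi-likelihood, TMM, filterByExpr minimum count 10, Benjamini-Hochberg at 0.05 over all genes, no block). Comparisons across populations used the 11284 genes held once by both tables. DESeq2 1.42.0 was an alternative. SE is from the F statistic. CPM levels were scaled over all 20 libraries, and log2 CPM used a prior count of 2. Positions and exon lengths are from GENCODE M21 on mm10, promoters from RefSeq. The pipeline was tested on simulated counts. Members and lists were chosen with earlier results of these data known, and the promoter motifs after the counts were seen. Named genes were the 5 members, the 3 nearest profiles of each, Itgb7 and Lgr5, and up to 4 genes of each list with the smallest p in WT; Dsp, Arhgef10 and the remaining other keratins were named after their values were seen. Some genes of the lists count in the totals but are not reported here by name.

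Nothing in the labels says how the animals were housed or bred. Numbers were taken to pair the GFP-high and GFP-low libraries: the labels repeat each number within a genotype without saying outright that it marks 1 mouse, and the same-numbered libraries, taken here as 1 mouse, had deviations from group means that correlated over 11284 genes with r of 0.169 to 0.625 in all 10 pairs.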

Additional observations from a re-analysis of the deposited data

Results flagged for a closer look

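Among 92 sets of 5 libraries looked at (keratin levels, partner ratios, Lgr5 and marker sums), 4 held a library standing apart from the other 4 by Dixon's criterion, which chance meets in about 1 of 20 sets. All 4 were marker sums of KO GFP-high cells. KO mouse 2 had an enterocyte marker sum of 388.3 CPM, next to 189.2 CPM. KO mouse 5 had a goblet marker sum of 2490 CPM (next 1554), an enteroendocrine sum of 194 CPM (next 112.3) and a level of Vim, the only stromal marker measured, of 4.041 CPM (next 2.064). These were the 2 KO GFP-high libraries with the most Krt20. No level or partner ratio of the 5 keratins stood apart in this way in any group.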

How the results depend on the processing

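The rises of Krt7, Krt8, Krt19 and Krt20 in GFP-low cells passed in WT and KO mice under every alternative run: DESeq2 size factors, library totals, no filter, the DESeq2 Wald test, the replicate block and each library left out. Krt18 did so in KO mice. In WT mice Krt18 lost its call with library totals (0.29), without GFP-low mice 3 and 8, an alternative chosen after seeing the data (0.60), and without 3 of the 10 libraries in turn (range over all 10, 0.51 to 0.78). No keratin passed for KO against WT in any of these, with 1 exception. With the replicate number as a block, Krt20 in GFP-high cells was at -1.16 (adjusted p = 1.90e-04), making 1 keratin changed. Only numbers 3 and 6 occur in both genotypes, on different mice whose deviations correlated with r of -0.10 to -0.08, so that fit compares 2 mice with 2. The block gave 122 genes changed in GFP-high and 36 in GFP-low cells, and DESeq2 145 and 12. Leaving out each library gave 0 to 1 and 1 to 2 genes. The mouse block changed no other edgeR call of a keratin. For the partner ratios in KO mice, leaving out a library gave -0.87 to -0.61 (Krt18 to Krt8), 2.15 to 2.53 (Krt20 to Krt8) and -0.29 to -0.20 (Krt19 to Krt8). The Krt18 and Krt20 calls were lost without any 1 of the 5 GFP-high libraries, though the values were nearly as large. They held without any 1 of the 5 GFP-low libraries, which leaves as few samples to permute. Krt19 passed without GFP-low mouse 2. An exact permutation test that flips signs within mice (the pairing as a replicate block) cannot go below p = 0.0625, the value it gave for Krt18 to Krt8 in WT (-0.52) and KO mice (-0.78), Krt20 to Krt8 in WT (2.65) and KO mice (2.33) and Krt19 to Krt8 in KO mice (-0.23). For Krt19 to Krt8 in WT mice (-0.19) it gave an exact p = 0.125. By coding length, an alternative chosen after seeing the data, the type I to type II ratio of KO GFP-high cells was 2.88. The smallest count of a keratin in a library was 255.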

Other observations

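Other keratins were measured at low levels. Of 5 held by both tables, Krt87 rose in GFP-low cells of both genotypes, by 1.05 ± 0.31 on the log2 scale in WT (SE; edgeR adjusted p = 0.0152) and 1.29 ± 0.25 in KO mice (adjusted p = 6.91e-04), from 3.04 ± 1.16 to 6.29 ± 2.43 CPM in WT mice (SD, n = 5). Krt15, a keratin known from basal and stem cells of stratified epithelia, fell by 0.65 ± 0.25 in KO mice (adjusted p = 0.0407) and was at -0.13 ± 0.47 in WT mice (adjusted p = 0.842). Krt10, Krt23 and Krt78 did not pass in either genotype, and no other keratin passed for KO against WT in either population, Krt31 and Krt12 included, each of which was in 1 table only.

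Krt78 varied between mice more than between groups. WT mouse 7 had 1 count in GFP-high and 7 counts in GFP-low cells, and WT mouse 8 had 22 and 42, while the other 3 WT mice had 89 to 203 and 139 to 222. The same 2 mice had the lowest Krt15 of the WT GFP-low libraries, 23 and 30 counts against 100 to 238. In GFP-high cells they did not: mouse 6 was lowest with 102 counts, and mice 7 and 8 had 126 and 151. These mice were singled out after their values were seen.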
